A study of Ornithorhynchus anatinus with 3 samples.

Results

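Of the 22369 platypus gene loci listed for the ovary, 606 spanned at least 100 kb on the numbered chromosomes and on the unplaced scaffolds named Ultra and Contig. The length of a locus is the distance from its first to its last base in the genome, introns included, and the loci were chosen by this length alone, so that no expression value entered the choice. All 606 were also listed in both fibroblast tables. Together they covered 108 Mb, with a median length of 147 kb and a longest locus of 1093 kb. The shortest that entered spanned 100064 bp and the longest that stayed out 99887 bp. They were set against 6046 loci of 10 to 50 kb on the same kinds of chromosomes, which had a median length of 19.2 kb. The 49 loci of this length placed on X chromosomes were left out.

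A vertebrate gene that spans such a distance owes its length mostly to introns, which are removed from the transcript, so that a long locus need not give a long mRNA. RNA polymerase takes longer to finish a transcript from it. In other vertebrates, very long genes often code for cell adhesion molecules, ion channels, receptors and proteins of synapses and muscle. Fibroblasts are connective tissue cells that build the extracellular matrix, whereas the ovary holds germ cells, the granulosa and theca cells of its follicles, and stroma.

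The data consist of 3 RNA-seq libraries, each from 1 adult animal. The ovary came from an ovulating female (Female1), 1 fibroblast library from a male (Male1) and the other from a second ovulating female (Female2). No treatment or genotype is named for any of them, the fibroblasts are described in the study as a cell line, and the libraries followed a directional mRNA protocol. The RNA integrity number was 9.3 for ovary, 8.9 for male and 9.9 for female fibroblasts. With 1 library per group there was no test between conditions. Intervals (95%) describe the spread over loci within a library, by Wilson's method for shares and from the order statistics for medians, and say nothing about the spread between animals. The files pair no identifier with a gene name, so that loci are given by position, counted from 1 on the assembly of the Ensembl release used by the study, and the tissues could not be checked against their marker genes. Genomic sequence of that assembly was not used here.

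Loci of 100 kb or more were unevenly spread over the assembly. They made up 188 of the 2411 loci on numbered chromosomes (7.80%), 359 of the 6323 on Ultra scaffolds (5.68%) and 59 of the 13061 on Contig scaffolds (0.452%). The listed loci reached to 100 kb or farther on 179 of 10385 Contig scaffolds. The lengths of the scaffolds themselves were not used here. On the numbered chromosomes, the mean gap to the nearest loci on either side had a median of 154 kb for the long loci (interval 129 to 177 kb) and of 45.8 kb for loci of 10 to 50 kb (41.4 to 49.1 kb). Long loci there also had another long locus as a neighbour more often, in 44 of 188 cases (23.4%) compared to 121 of 1019 (11.9%). Of all 606 long loci, 118 (19.5%) overlapped another locus, and 92 (15.2%) held another locus within their span. For the loci of 10 to 50 kb, these shares were 4.63% and 2.12%. Whether reads in an overlap were assigned by strand is not given in the sources used here, so that the values of such loci are uncertain. The 113 loci that lay within a long one were mostly small, with a median length of 153 bp, and 72 of them (63.7%) were under 1 kb.

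Nearly all long loci were listed above 0 in the ovary library, but their levels were lower than those of loci of 10 to 50 kb. An FPKM above 0 (fragments per kilobase of transcript, scaled to the mapped fragments of the library) was listed for 591 of the 606 loci (97.5%, interval 96.0% to 98.5%). Among loci of 10 to 50 kb this held for 94.4% (93.7% to 94.9%), and among all 20408 loci in the 3 tables for 74.1%. In fibroblasts, an RPKM (the same measure for reads) above 0 was listed for 521 of the long loci in the male (86.0%, 83.0% to 88.5%) and 530 in the female library (87.5%, 84.6% to 89.9%). The loci of 10 to 50 kb reached 83.8% and 84.9%, and all loci 64.1% and 65.0%. In both fibroblast libraries the interval of the long loci thus included the share of the shorter ones. On the numbered chromosomes alone the difference was -0.715 percentage points in the male and -3.35 points in the female library. There, too, the intervals of the long loci (75.8% to 86.8% and 74.6% to 85.8%) included the shares of the shorter ones (82.6% and 84.2%).

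With a minimum of 1 in place of 0, ovary and fibroblasts parted. In ovary, 514 long loci (84.8%, interval 81.7% to 87.5%) had an FPKM of at least 1, which was 4.0 percentage points more than among loci of 10 to 50 kb (80.8%). In male fibroblasts, 370 (61.1%, 57.1% to 64.9%) had an RPKM of at least 1, or -7.52 points relative to the shorter loci (68.6%). In female fibroblasts, 381 (62.9%, 59.0% to 66.6%) did so, or -6.10 points relative to 69.0%. Over all loci the shares were 61.2% in ovary, 50.6% in male and 50.7% in female fibroblasts. The long loci were thus above all loci in each library, and in fibroblasts below only the loci of 10 to 50 kb. Among the long loci the share was lowest in the 58 of 300 kb or more, at 75.9% in ovary, 51.7% in male and 55.2% in female fibroblasts.

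**Figure D1:**
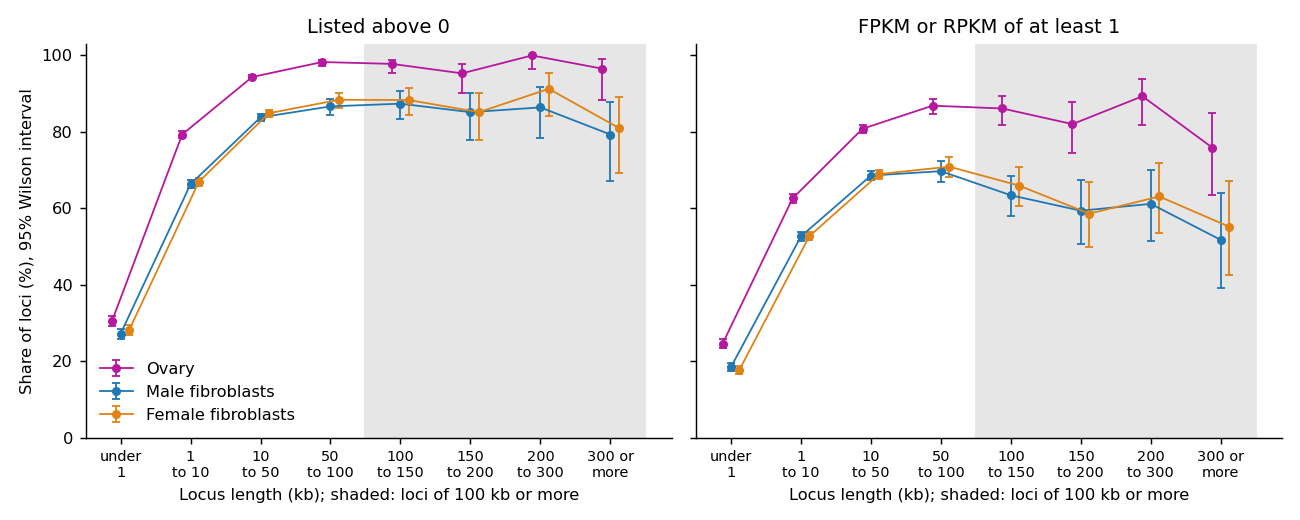
Share of loci (%) listed above 0 (left) and with an FPKM or RPKM of at least 1 (right) by locus length in kb, in the ovary, male fibroblast and female fibroblast library; bars are 95% Wilson intervals over loci. Within the shaded range of 100 kb or more, the share above 0 stayed at 79.3% or higher, while the share of at least 1 lay between 51.7% and 65.9% in fibroblasts and between 75.9% and 89.3% in ovary.

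Among loci above 0, the median ovary FPKM of long loci was 8.66 (interval 7.18 to 10.5), compared to 13.3 for loci of 10 to 50 kb, a ratio of 0.652 (0.541 to 0.792). In male fibroblasts the medians were 5.84 (4.19 to 7.29) and 12.7, a ratio of 0.459 (0.330 to 0.573). In female fibroblasts they were 7.01 (5.48 to 9.02) and 14.2, a ratio of 0.495 (0.387 to 0.638). At 1 to 10 kb the medians were 7.53 FPKM in ovary, 10.4 RPKM in male and 9.79 RPKM in female fibroblasts. Under 1 kb they were 8.87, 2.88 and 2.29 in the same order. The lower quartile of the ovary levels was nearly alike in the long and the shorter loci, at 3.17 and 3.24 FPKM, and the upper quartile was 24.0 and 39.1. In fibroblasts both quartiles were lower in the long loci (0.634 and 18.1 RPKM in the male, 0.659 and 24.2 in the female) than in the shorter ones (2.52 and 43.1, and 2.60 and 47.0). High levels were rare. An FPKM or RPKM of at least 100 was reached by 20 long loci in ovary (3.30%), 14 in male (2.31%) and 17 in female fibroblasts (2.81%), whereas 8.47%, 9.79% and 10.2% of the shorter loci reached it. In bulk RNA, fewer cells of a type and less RNA per cell cannot be told apart.

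Over the 4 length bins from 100 kb upward (100 to 150, 150 to 200, 200 to 300 and 300 kb or more), the median level of loci above 0 in ovary was 9.72, 8.28, 8.51 and 6.49 FPKM. In male fibroblasts it was 6.50, 6.36, 4.76 and 3.82 RPKM, and in female fibroblasts 7.50, 8.26, 6.19 and 4.21 RPKM. The last bin had the lowest median in each library, but the order of the others was not the same. The intervals of these bins overlapped in each library, and that of the longest bin, with 56 loci above 0 in ovary, ran from 3.34 to 12.4 FPKM.

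**Figure D2:**
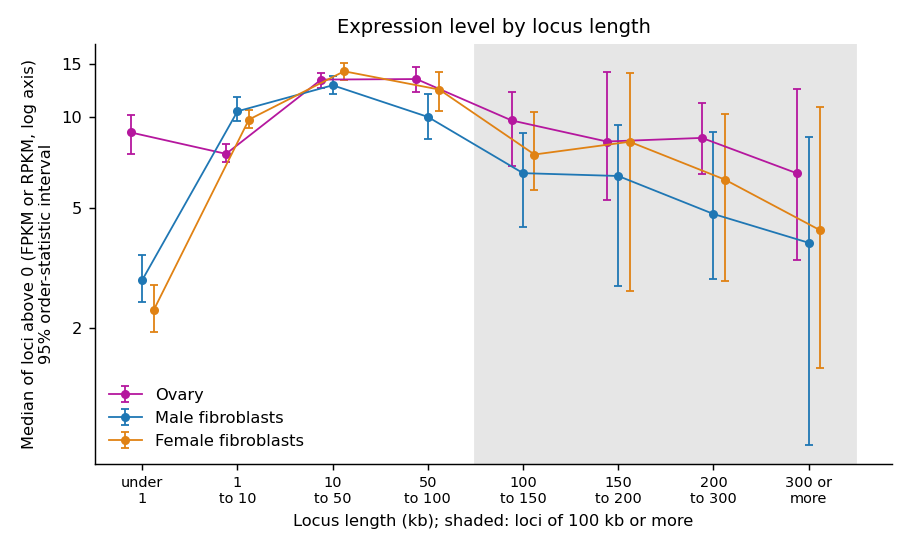
Median expression level of loci above 0 (FPKM in ovary, RPKM in fibroblasts, log axis) by locus length in kb; bars are 95% order-statistic intervals over loci. Medians were highest at 10 to 100 kb in ovary and at 10 to 50 kb in fibroblasts, and at 300 kb or more they were 6.49 in ovary, 3.82 in male and 4.21 in female fibroblasts.

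At the limit of length, the locus of 100064 bp had 6.06 FPKM in ovary, 1.64 RPKM in male and 1.77 RPKM in female fibroblasts, and that of 99887 bp, which did not enter, 69.7, 129 and 186.

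Of the 5 long loci that were among the 3 highest in a library, 4 had values of over 100 in all 3 libraries. A locus of 129 kb on Contig1537, from 5449 to 133967, had the highest ovary value, 565 FPKM, with 328 RPKM in male and 388 RPKM in female fibroblasts. A locus of 140 kb on chromosome 2, from 37328889 to 37468507, was the highest in both fibroblast libraries, with 371 RPKM in the male and 510 RPKM in the female, and had 545 FPKM in ovary. Both overlapped another locus. The third highest in ovary, 154 kb on Ultra516 from 8100678 to 8254437, had 420 FPKM, 154 RPKM in male and 150.2 RPKM in female fibroblasts, and it held 2 other loci within its span. The third highest in female fibroblasts, 132 kb on chromosome 6 from 11049348 to 11181013, had 306 RPKM there, 213 RPKM in the male and 229 FPKM in ovary. The exception was ENSOANG00000014074 on chromosome 4, the third highest in male fibroblasts, with 317 RPKM in the male, 218 RPKM in the female and 18.1 FPKM in ovary.

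The 5 longest loci varied widely in level. The longest, 1093 kb on chromosome 7 from 20437644 to 21531073, had 0.979 FPKM in ovary, 0.0633 RPKM in male and 0.392 RPKM in female fibroblasts. It overlapped 2 other loci. That of 688 kb on Ultra84, from 4083173 to 4771448, had 16.3 FPKM in ovary, 12.2 RPKM in male and 27.1 RPKM in female fibroblasts, and also overlapped 2 loci. The locus of 650 kb on Ultra9, from 1746550 to 2396175, was at 12.4, 7.37 and 6.97 in the same order. Of the last pair, the locus of 646 kb on Ultra51 (3035241 to 3680981) was at 7.83, 7.30 and 10.8, and the locus of 615 kb on Ultra272 (7261410 to 7876292) at 2.52, 0.733 and 1.26. The longest was thus the lowest of the 5 in all 3 libraries.

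To compare tissues, the ovary FPKM of each locus was divided by the geometric mean of its 2 fibroblast RPKM values, and by the median of this ratio over all 12206 loci above 0 in all 3 libraries (1.12 before the division). A ratio of 1 therefore means the same relation as in the median locus, not the same amount of RNA. The 503 long loci above 0 in all 3 libraries had a median ratio of 1.35 (interval 1.19 to 1.52), whereas the 4876 loci of 10 to 50 kb had one of 0.940 (0.907 to 0.977). The ratio was above 1 for 322 of the 503 long loci (64.0%) and for 48.0% of the shorter ones. The median was 1.43-fold higher in the long loci than in the shorter ones. The direction was the same against either fibroblast library, with medians of 1.51 against 0.969 for the male and 1.20 against 0.930 for the female. These comparisons share the ovary library.

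**Figure D3:**
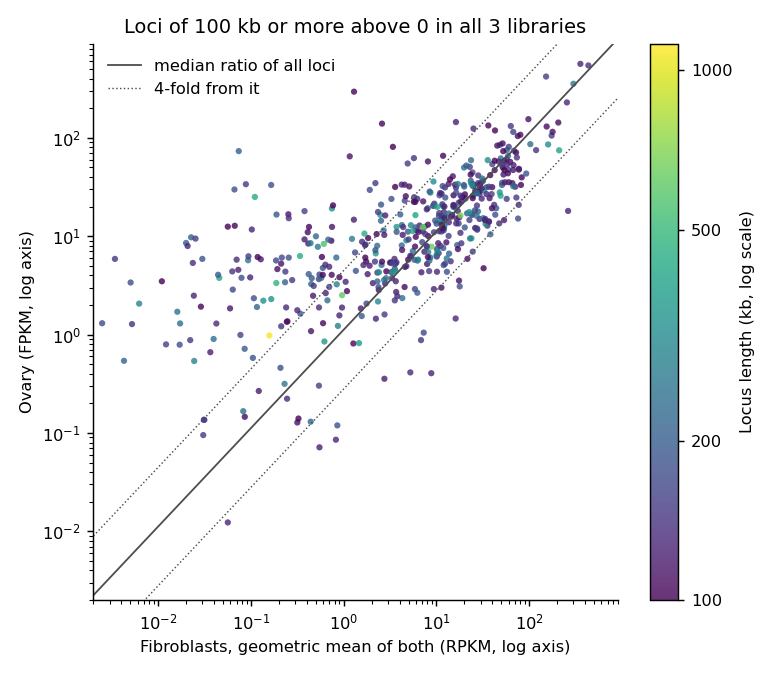
Each point is 1 of the 503 loci of 100 kb or more above 0 in all 3 libraries, plotted by its fibroblast level (geometric mean of both, RPKM, log axis) and its ovary level (FPKM, log axis), and colored by length in kb. The solid line is the median ratio of all loci and the dotted lines are 4-fold from it; 134 points lie above the upper and 20 below the lower dotted line, and many of the former have fibroblast values under 1.

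Both tails of the distribution differed from those of the shorter loci. A ratio of at least 4 was reached by 134 long loci (26.6%), compared to 15.2% of the loci of 10 to 50 kb and 18.0% of all loci. A level at least 4-fold higher in fibroblasts was found for 20 long loci (3.98%), compared to 7.79% of the shorter and 9.58% of all loci. Against the male library alone, 144 long loci (28.6%) were at least 4-fold higher in ovary, with 18.8% over all loci, and 23 (4.57%) higher in the male, with 11.4% over all loci. Against the female library alone, 122 (24.3%, 17.8% over all loci) were higher in ovary and 20 (3.98%, 8.05% over all loci) higher in the female. At 2-fold, 193 long loci (38.4%) were higher in ovary, where the share over all loci was 29.3%, and 70 (13.9%) were higher in fibroblasts, where it was 25.9%. The middle 50% of the long loci had ratios from 0.742 to 4.70, and those of the shorter loci ratios from 0.506 to 2.09.

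**Figure D4:**
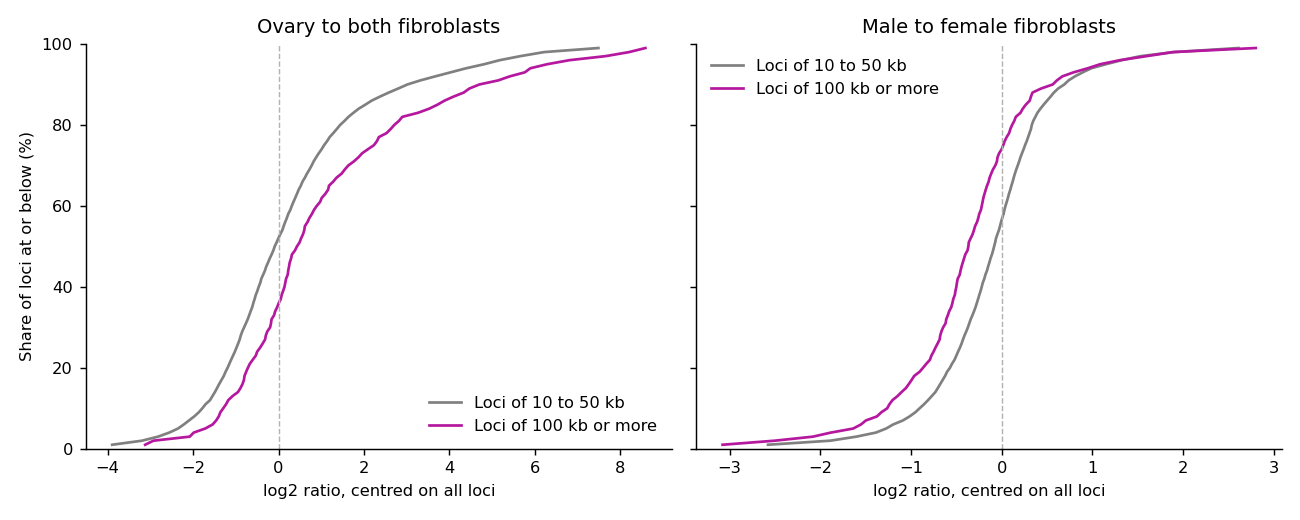
Share of loci (%) at or below a log2 ratio, for loci of 100 kb or more and of 10 to 50 kb, for the ovary to fibroblast ratio (left) and the male to female fibroblast ratio (right), both centred on all loci. The curve of the long loci lies to the right of the other on the left, most of all in its upper part, and to the left of it over most of the range on the right, where the curves meet at the upper end, with 64.0% of the long loci above a log2 ratio of 0 for ovary to fibroblasts and 26.0% for male to female.

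An RPKM under 1 in both fibroblast libraries was listed for 217 of the 606 long loci. It was listed for 1792 of the 6046 loci of 10 to 50 kb and for 9742 of all 20408 loci. Among the 606 long loci, 132 (21.8%, interval 18.7% to 25.2%) had an FPKM of at least 1 in ovary and an RPKM under 1 in both fibroblast libraries, with a median of 4.18 FPKM. Among loci of 10 to 50 kb the share was 12.5% (11.7% to 13.3%), and among all loci 11.7%. The opposite pattern was at least 1 in both fibroblast libraries and under 1 in ovary. It was found for 6 long loci (0.990%), for 1.42% of the shorter ones and for 2.05% of all loci. The share with at least 1 in ovary and under 1 in both fibroblast libraries lay between 20.5% and 25.2% in all 4 length bins from 100 kb upward. When the loci were put into 4 classes of equal size by their mean log2 level over the 3 libraries, the median ratio of the lowest class was 7.13 for long loci (167 loci, interval 5.11 to 13.03) and 3.36 for the shorter ones. In the next classes it was 1.21 against 1.06, 0.992 against 0.825 and 0.801 against 0.653. The long loci were thus above the shorter ones in every class, while 33.2% of the long and 21.7% of the shorter loci fell into the lowest class and 13.7% and 27.3% into the highest. In the second and the highest class the interval of the long loci included the median of the shorter ones.

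By the rule for naming, 2 loci were listed at either end of the ratio among the 475 with a value of at least 1 in some library. ENSOANG00000010310, 144 kb on Ultra544 from 5323042 to 5467309, had 5.88 FPKM in ovary (limits of the deposited interval 5.46 and 6.30), 0.00149 RPKM in male and 0.00780 RPKM in female fibroblasts. ENSOANG00000006816, 206 kb on Ultra374 from 257937 to 464216, had 73.3 FPKM (72.0 to 74.6), 0.0358 RPKM and 0.152 RPKM, and held another locus. Both were close to 0 in the fibroblast tables, so that the size of their ratios is poorly defined. At the other end, ENSOANG00000010274, 125 kb on Ultra67 from 11560222 to 11685097, had 0.405 FPKM in ovary (0.127 to 0.683), 2.43 RPKM in male and 31.8 RPKM in female fibroblasts. ENSOANG00000014074, 124 kb on chromosome 4 from 5016264 to 5140600, had 18.1 FPKM in ovary (15.9 to 20.3) and the high fibroblast values given above. It was 16.3-fold lower in ovary relative to the median locus, and the previous one 24.4-fold lower.

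A further 49 long loci (8.09%) were listed above 0 in ovary and at 0 in both fibroblast libraries, a share close to that of the loci of 10 to 50 kb (8.35%) and of all loci (9.66%). Their ovary levels were low, with a median of 0.721 FPKM, and 20 of them had an FPKM of at least 1. This was not particular to long loci. With the same pattern, loci of 10 to 50 kb had a median of 0.629 FPKM (209 of 505 at 1 or more). All loci with it had a median of 0.641 FPKM (834 of 1972). The highest of the 49 long loci lay on chromosome 7 from 34381560 to 34488059 and had 37.2 FPKM (limits of the deposited interval 30.5 and 44.0). The next, on chromosome 5 from 6960903 to 7140859, held another locus and had 9.61 FPKM with wide limits (1.79 to 17.4), and the third, on Ultra117 from 4940717 to 5164729, had 7.18 FPKM (5.29 to 9.08).

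In contrast, 15 long loci were listed at 0 in ovary, and 11 of them overlapped another locus. Of the 15, 10 were at 0 in all 3 libraries (1.65% of the long loci, compared to 4.27% of the shorter and 22.7% of all loci). The other 5 were above 0 in a fibroblast library (0.825%, compared to 1.37% of the shorter and 3.25% of all loci). None of the 5 had an RPKM of at least 1. The highest of them was the locus of 453 kb on Ultra274 from 6730514 to 7183123, with 0.560 RPKM in the male and 0.806 RPKM in the female library. The locus on Ultra226 (407414 to 511799) had 0.132 RPKM and the one on chromosome 1 (36192982 to 36499318) 0.0983 RPKM, both in the male library only. The last pair, chosen after their values were seen, had 0.0796 RPKM (Ultra442, 283185 to 468390) and 0.0421 RPKM (Ultra389, 761740 to 903925) in the female library only. A value of 0 means only that the locus is listed at 0, as the tables give no read counts.

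The fibroblast libraries themselves differed at long loci. The M∶F ratio (male over female RPKM, divided by the median of 0.973 over 12551 loci above 0 in both) had a median of 0.775 (interval 0.741 to 0.812) over 504 long loci, compared to 0.944 (0.933 to 0.955) over 4915 loci of 10 to 50 kb. This ratio was above 1 for 131 of the 504 long loci (26.0%) and for 43.4% of the shorter loci. A ratio at least 2-fold below 1 was found for 83 long loci (16.5%), compared to 8.18% of the shorter and 8.64% of all loci. A ratio of at least 2 was found for 30 (5.95%), a share close to that of the shorter loci (5.90%) and below that of all loci (8.57%). The middle 50% of the ratios lay between 0.603 and 1.01 for long loci and between 0.727 and 1.20 for the shorter ones, so that the long loci were lower in the middle and lower part of the distribution but not at its upper end. Loci placed on the X chromosomes did not enter these values, and whether loci on unplaced scaffolds belong to an X chromosome was not tested. Sex, animal and RNA integrity number (8.9 in the male, 9.9 in the female) cannot be told apart here, and their part in the difference was not tested.

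Across all lengths the M∶F ratio fell in steps up to 150 kb. Its median was 1.23 for loci under 1 kb, 1.10 at 1 to 10 kb, 0.944 at 10 to 50 kb, 0.820 at 50 to 100 kb and 0.774 at 100 to 150 kb (269 loci, interval 0.731 to 0.834). Beyond that it was 0.772, 0.788 and 0.714 in the last 3 bins, whose intervals overlapped one another and that of the bin before. The ovary to fibroblast ratio rose from 0.850 at 1 to 10 kb to 0.940, 1.22 and 1.31 in the following bins and to 1.40, 1.43 and 1.51 beyond 150 kb, again with overlapping intervals from 50 kb upward. Loci under 1 kb did not follow this order, with a median of 2.39. Within the long loci alone, the rank correlation with length was near 0, at 0.039 for the ovary to fibroblast ratio (503 loci) and 0.016 for the M∶F ratio (504 loci). These are correlations over loci of the same libraries.

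**Figure D5:**
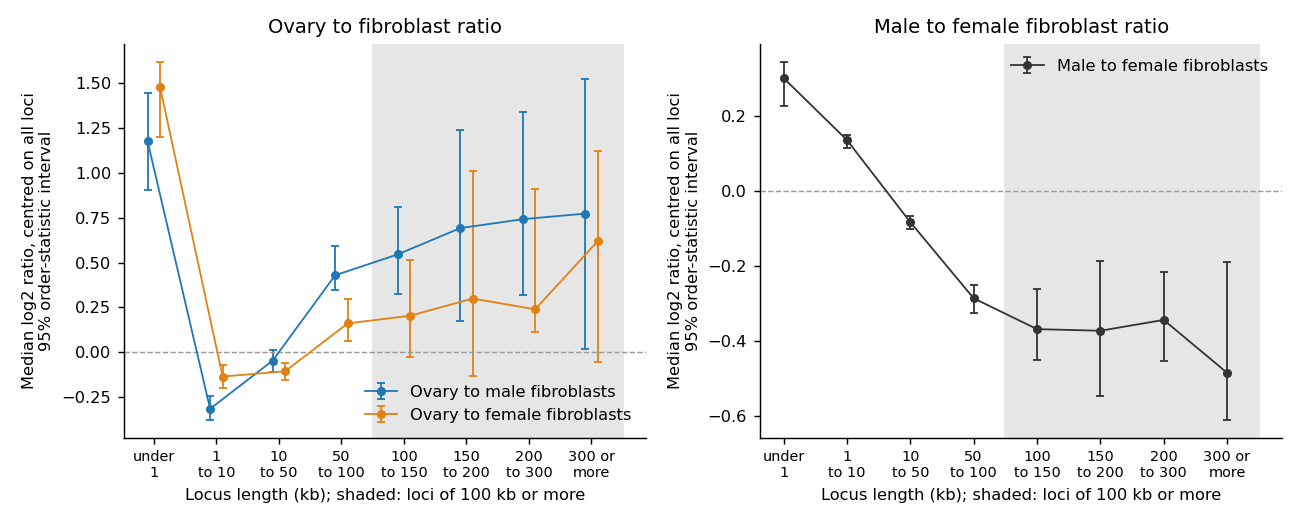
Median log2 ratio by locus length in kb for ovary to male and ovary to female fibroblasts (left) and for male to female fibroblasts (right), each centred on all loci; bars are 95% order-statistic intervals over loci. The ratio of ovary to male fibroblasts lies above that of ovary to female fibroblasts in all bins from 10 kb upward, and the male to female ratio falls from 0.30 under 1 kb to -0.49 at 300 kb or more.

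Among the 389 long loci with an RPKM of at least 1 in a fibroblast library, the locus with the highest M∶F ratio was 123 kb long, on Ultra195 from 1811904 to 1935144, with 14.1 RPKM in the male and 0.945 RPKM in the female library, a 15.3-fold difference, and 3.49 FPKM in ovary. The next, on Ultra22 from 164229 to 325129, had 1.41 RPKM in the male, 0.102 RPKM in the female and 18.0 FPKM in ovary, and overlapped another locus. The lowest ratio, 0.0699, belonged to a locus on Ultra477 from 571479 to 677155, with 0.675 RPKM in the male, 9.91 RPKM in the female and 139.5 FPKM in ovary. The second lowest, 0.0784, was that of ENSOANG00000010274, described above. Such loci were exceptions, as the levels of the 504 long loci in both fibroblast libraries had a rank correlation of 0.969, compared to 0.737 between ovary and male (518 loci) and 0.731 between ovary and female fibroblasts (527 loci).

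Within each kind of chromosome the long loci stood above the shorter ones in the ovary to fibroblast ratio and below them in the M∶F ratio. On numbered chromosomes the median ratios of ovary to fibroblasts were 1.36 (147 loci, interval 1.13 to 1.62) and 1.03. On Ultra scaffolds they were 1.34 (301 loci, 1.18 to 1.65) and 1.07, and on Contig scaffolds 1.41 (55 loci, 0.628 to 2.13) and 0.796. The interval of the long loci on Contig scaffolds included the median of the shorter ones. The M∶F medians were 0.773 and 0.909 on numbered chromosomes, 0.756 and 0.910 on Ultra scaffolds, and 0.839 and 1.01 on Contig scaffolds. Among the 13 chromosomes and scaffolds with at least 10 long loci, the ovary to fibroblast ratio was higher in the long loci on 10, and the M∶F ratio lower on 10. The widest gap in the former was on Ultra274 (10 loci, 2.40 against 0.894). Of the 488 long loci that overlapped no other, the 414 above 0 in all 3 libraries had medians of 1.34 for ovary to fibroblasts and 0.753 for M∶F. Neighbouring loci differed less: the 327 loci of 10 to 50 kb that lay next to a long locus had a median ovary to fibroblast ratio of 1.06 (0.859 to 1.18), compared to 0.934 for those that did not, and M∶F medians of 0.922 and 0.945.

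Chromosome 6, whose genes correspond largely to those of the X chromosome of other mammals, held 8 of the long loci, all above 0 in ovary. The 7 of them above 0 in both fibroblast libraries were lower in the male relative to the median locus. Their M∶F ratios ran from 0.351 to 0.715, with a median of 0.404. The lowest belonged to ENSOANG00000021595, near 0 at 0.0501 RPKM in the male and 0.147 RPKM in the female. ENSOANG00000011663 was also low, at 0.251 and 0.667 RPKM, whereas ENSOANG00000011692, with a ratio of 0.352, had 3.48 and 10.2 RPKM. Whether these loci differ from other long loci was not tested. Over all 504 long loci the M∶F ratio was above 1 for 26.0% and its median was 0.775. For the 37 loci of 10 to 50 kb on chromosome 6 the median was 0.837 (interval 0.730 to 0.987), and for those on the other numbered chromosomes 0.912.

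The longest run of neighbouring long loci held 4, on Ultra67 between 3829790 and 5121329. Within each library, the outer pair had similar levels and the inner pair far lower ones. The first (128 kb) had 57.4 FPKM in ovary, 39.7 RPKM in male and 55.6 RPKM in female fibroblasts, and the fourth (102 kb) had 58.5, 31.9 and 56.6. Between them, the second (322 kb) had 0.313 FPKM in ovary and was listed at 0 in both fibroblast libraries, and the third (176 kb) had 4.86 FPKM in ovary, 0 in male and 0.0142 RPKM in female fibroblasts. None of the 4 overlapped another locus.

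The precision of the ovary values was similar in long and shorter loci. The half-width of the deposited interval had a median of 15.3% of the FPKM for long loci and 13.2% for loci of 10 to 50 kb. If this interval stands for 2 square roots of the fragment number on either side, the medians correspond to 171 and 230 fragments. Under this reading, 22.1% of the numbers under 300 came out whole within 0.01 for long loci and 38.6% for the shorter ones, so that it holds less well for the former. For the 505 long loci with an ovary status of OK and at least 20 such fragments, the median number of fragments per FPKM was 1.22 times that of the shorter loci. This number grows with the length of the exon model, but it depends on the same reading of the interval. The loci that met these 2 conditions were put into 4 classes of equal size by it. In the class with the most fragments per FPKM, the median ovary to fibroblast ratio was 1.30 for 185 long loci (interval 1.12 to 1.77) and 0.795 for the shorter ones. In the class with the fewest it was 1.24 (65 loci, 1.02 to 1.73) and 1.23, so that no difference was detectable there. The M∶F ratio was lower for long loci in all 4 classes, with medians from 0.741 to 0.858 against 0.932 to 0.946. In the class with the fewest fragments per FPKM its interval (0.739 to 0.964) included the median of the shorter loci. The depth of the fibroblast libraries is unknown.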

How the data were processed

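RNA was measured in 3 platypus libraries. The ovary file, as the authors deposited it, gives each gene an FPKM with its limits, a position and a status code, as Cufflinks writes them. For the fibroblasts, the authors deposited 1 RPKM score per gene, in which a code of -1 stood for 7 genes without a value (none of them among the long loci). The submitters' processing notes name Bowtie, TopHat 1.0.13 and Cufflinks 1.0.3, and the paper refers to refined Ensembl gene models, so that the models behind both kinds of table may differ. The status of the ovary value was OK for 598 long loci. Repeated identifiers (4) were dropped, and 1 was added to each start, since the first mitochondrial locus starts at 0. Fibroblast values were joined by identifier, and levels were compared only within a library or relative to the median locus. No pseudocount was used, and loci at 0 have no ratio. The named loci are the extremes of each ratio, the longest, the highest in each library and the longest run. Added to these were the loci at the limit of length and the highest among those at 0 in ovary or in both fibroblast libraries. The loci given by identifier on chromosome 6 fell outside these rules and were those with the lowest M∶F ratios there. The members and all lists were chosen with earlier results of these data known. Values were computed in Python 3.11.15 with pandas 2.3.3, numpy 2.4.6 and scipy 1.17.1, plotted with matplotlib 3.10.9, and the steps were tested on simulated data.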

Additional observations from a re-analysis of the deposited data

Results flagged for a closer look

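The share of loci with a value of at least 1 differed between long loci and loci of 10 to 50 kb in opposite directions in the 2 tissues, by 4.0 percentage points in ovary, by -7.52 points in male fibroblasts and by -6.10 points in female fibroblasts. In each library the long loci were above the share over all loci (61.2% in ovary, 50.6% in male and 50.7% in female fibroblasts). On the numbered chromosomes alone the ovary shares were nearly alike, at 83.0% for long loci and 82.4% for loci of 10 to 50 kb. With 1 library each, the difference between the tissues was not tested. No group had enough libraries to look for a sample far from the others.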

How the results depend on the processing

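No paired analysis was possible because each combination of tissue and sex has a single library. Of 68 alternative values, 56 kept their direction and stayed within the interval of the value reported (for counts, within 1.5 times). Another 7 kept their direction but moved beyond this, and 5 changed sign. The sign changes all concern detection in fibroblasts, and the cause was not tested. The difference from the shorter loci (2.18 percentage points in male and 2.58 in female fibroblasts as reported) became -0.715 and -3.35 on numbered chromosomes only, -7.52 and -6.10 with a minimum of 1, and -0.298 in the male with comparison loci of 20 to 50 kb. Of these, -0.715 and -0.298 lay within the interval reported for the male (-0.809 to 4.72). Detection in ovary (3.16 points) moved to 4.70 without overlapping loci and to 1.53 with comparison loci of 20 to 50 kb. The level ratio in female fibroblasts moved to 0.649 when only loci of at least 1 were kept. The log2 difference between long and shorter loci in the ovary to fibroblast ratio (0.52) stayed between 0.34 and 0.71 under 12 alternatives, and left its interval in the class with the most derived fragments per FPKM (0.71). That in the M∶F ratio (-0.28) stayed between -0.33 and -0.13 under 9, and moved to -0.13 with log2(value + 1) and to -0.21 with comparison loci of 20 to 50 kb. The class with the fewest derived fragments per FPKM was not among these alternatives. There the log2 medians of long and shorter loci were 0.31 and 0.30 for ovary to fibroblasts, nearly alike, and -0.22 and -0.10 for M∶F. Both differences were smaller than the ranges given here. The count of long loci at least 4-fold higher in fibroblasts (20) fell to 12 with log2(value + 1). For the ovary to fibroblast ratio, the log2 median of the long loci was 0.43 when centred on all loci. Centred on numbered chromosomes it was 0.28, near the lower limit of the interval reported (0.25). The choices on derived fragments and on fragments per FPKM were made after seeing the data. Fibroblast read numbers are unknown, so ratios of loci near 0 are poorly defined.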
